A study of Gallus gallus with 12 samples.

Results

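Matrix metalloproteases and their inhibitors were followed in chick limb-bud mesenchymal cells that overexpressed 1 of 5 transcription factors of connective tissue. The genes were every feature named MMP, TIMP, ADAMTS or ADAM with a number, which gave 56 of the 21350 features in the count tables: 16 MMP, 3 TIMP, 18 ADAMTS and 19 ADAM genes. Names alone defined the set and no measured value served as a filter, but the set was chosen with earlier results of these data known. Of the 56, 55 had enough counts to be tested. MMP3, with 0 to 10 counts per library, was not.

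Cells came from limb buds of Lohmann Selected Leghorn embryos at embryonic day 4.5 and were grown for 5 days as dense droplets. Before plating they were infected with the avian retrovirus RCAS-BP(A) carrying the coding sequence of OSR1, OSR2, EGR1, KLF2 or KLF4, labelled in the form RCAS-BP(A)-OSR1-3F, while Control cells received the empty virus, RCAS-BP(A)-empty. All groups therefore share the infection, and each of the 6 groups has 2 libraries, each made from the RNA of 6 pooled cultures. Nothing in the labels says that the 2 libraries of a group came from separate embryos, so p-values measure the spread between these libraries, which may be technical. The labels do not say what share of the cells carried the virus.

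The vertebrate matrix is cut by zinc proteases made as inactive precursors, which furin-like enzymes or other proteases activate. Secreted MMPs cut collagens, gelatin and proteoglycans, membrane-type MMPs act at the cell surface, ADAMTS enzymes cut proteoglycans and procollagens, and ADAMs shed the outer parts of membrane proteins. TIMPs block these enzymes, and in limb cartilage and tendon the balance between both sides sets how matrix is laid down and replaced. The roles given below are known mostly from mouse and human genes.

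The factor libraries held 74139243 to 106079374 counts and the Control libraries 51233721 to 59297870, and all values are CPM, counts per 1000000 counts of the library after scaling of library sizes. The inserted gene was highest in its own group each time, for example 3214 and 3179 CPM of OSR1 in OSR1 libraries against 4.90 and 4.95 CPM in Control. The 12 fixed markers of limb connective tissue were all detected and summed to 16431 to 22910 CPM in factor libraries and 12049 to 12890 CPM in Control. The collagen gene COL1A2 alone had 8268 to 12175 CPM in factor libraries and 6078 and 6609 CPM in Control. Not every marker rose with the sum: OGN had 511 to 591 CPM in KLF2 and KLF4, against 1112 and 1043 CPM in Control. Cartilage markers were at 3595 to 5993 CPM in OSR1 and OSR2, 17556 to 21153 CPM in EGR1, 12884 to 15239 CPM in KLF2 and KLF4, and 18383 to 19728 CPM in Control. Every fold change over Control rests on the same 2 Control libraries, so changes over Control in different factors are not independent. A gene is called when the adjusted p of edgeR's quasi-likelihood test, adjusted by Benjamini-Hochberg over all 18979 features tested, is under 0.05. Every adjusted p below comes from that test unless another is named, and "rose" and "fell" are used of called genes. Calls on the MMP, TIMP, ADAMTS and ADAM genes, but not on markers, substrates or other listed genes, were checked under other conditions. The tests were repeated with each library left out in turn and under other settings. For most of these genes whose call was lost, the library or setting is given. Over all 9 comparisons, 147 of the 241 calls on these genes were never lost.

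In each of the 5 factors, 33 to 41 of the 55 tested genes changed. Over Control, in OSR1 23 of 55 rose, against 28.4% of all features, and 14 fell, against 22.7%. Both directions make 67.3% of the genes, where 51% of all features were called. In OSR2 24 of 55 rose, against 28.9% of all features, and 15 fell, against 23%. Together this is 70.9% of the genes, where 51.9% of all features were called. In EGR1 22 of 55 rose, against 24.6% of all features, and 11 fell, against 20.5%. Both directions make 60% of the genes, where 45.1% of all features were called. In KLF2 24 of 55 rose, against 28.1% of all features, and 14 fell, against 23.5%. In all this is 69.1% of the genes, where 51.6% of all features were called. In KLF4 25 of 55 rose, against 28.7% of all features, and 16 fell, against 25.5%. Both directions make 74.5% of the genes, where 54.2% of all features were called. The background is high in all 5 comparisons, so these counts alone say little about the protease genes. Among features that averaged 5 CPM or more, the same shares were 71.8% of members and 62% of all in OSR1, 71.8% of members and 62.5% of all in OSR2, 64.1% of members and 56.2% of all in EGR1, 79.5% of members and 62.6% of all in KLF2 and 79.5% of members and 62.9% of all in KLF4.

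In all 5 factors 24 genes were called, 17 of them higher (30.9% of the 55, against 16.5% of all features) and 7 lower (12.7%, against 11.5%) each time. Together they make 43.6% of the genes, where 27.9% of all features were called in 1 direction in all 5, and the 5 comparisons share the Control libraries. A change common to all 5 therefore cannot be told apart from a difference particular to the Control libraries. The 17 are the inhibitors TIMP2 and TIMP3, the MMPs MMP9, MMP11, MMP14, MMP15 and MMP28, the enzymes ADAMTS1, ADAMTS5, ADAMTS10, ADAMTS12 and ADAMTS15, and ADAM8, ADAM9, ADAM17, ADAM29 and ADAM33. The 7 are MMP1, MMP13, MMP27, ADAMTS6, ADAMTS18, ADAM22 and ADAM23. Another 5 genes moved in opposite directions in different factors: MMP7, MMP17, MMP23B, ADAMTS2 and ADAMTS17. ADAM10, ADAM5, ADAM18 and ADAM20 were called in no comparison. Of the 39 genes that averaged 5 CPM or more, the highest group mean was 1.12 times the lowest for ADAM10 and 8.04 times for TIMP3, with a median of 2.12, and Control was the lowest group for 19 and the highest for 9. How often Control is the lowest or highest group among all features was not counted. Nor were the features that moved in opposite directions or were called nowhere, so these counts describe the members only. Library values are given for 24 genes by a fixed rule, and also for MMP7, MMP17, MMP23B, MMP28, ADAMTS2, ADAMTS3, ADAMTS6, ADAMTS17, ADAMTS18, ADAM22 and ADAM34, which were picked after their values had been seen.

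**Figure D1:**
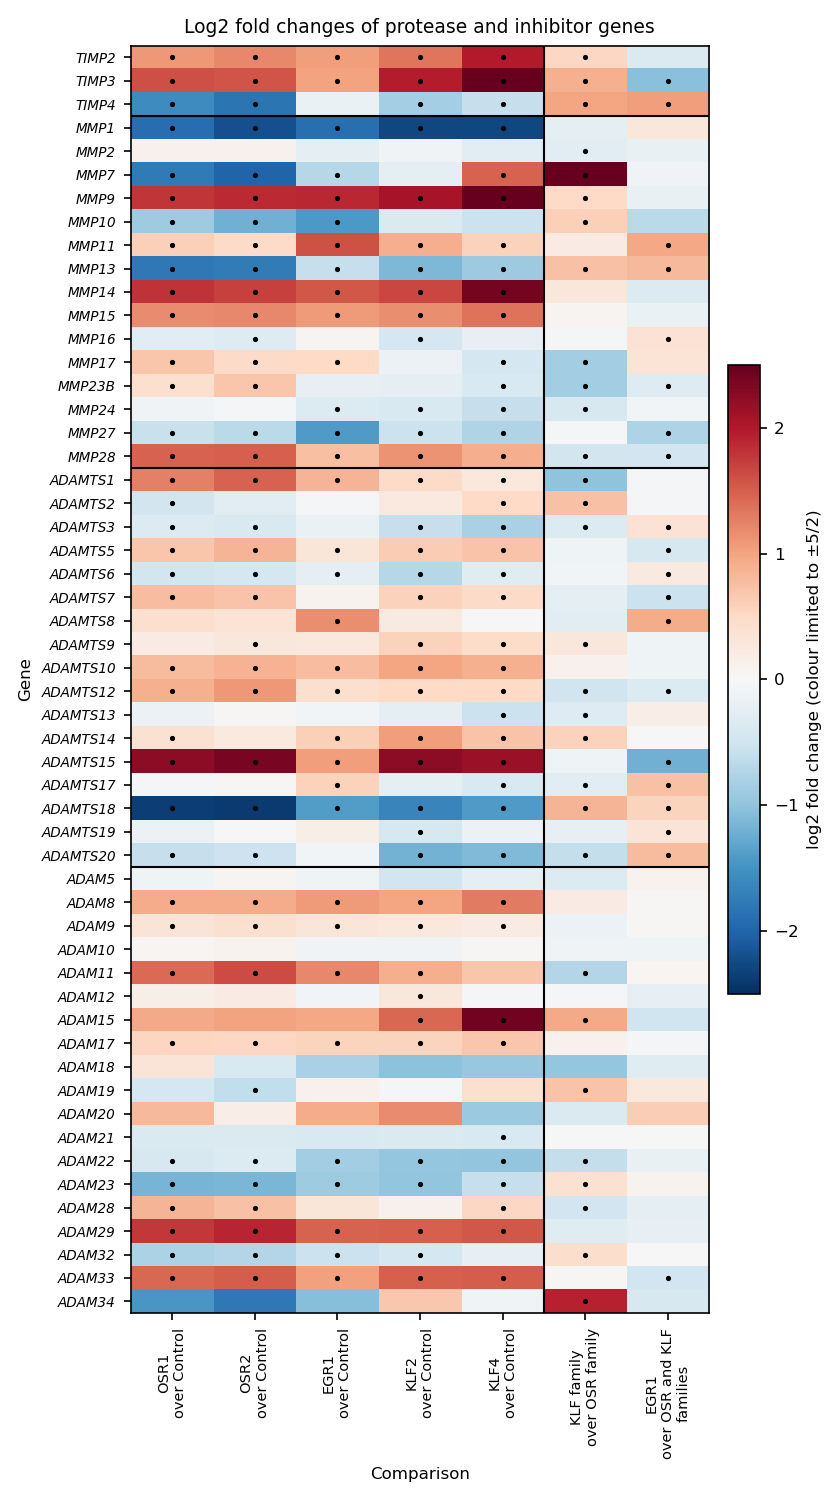
Log2 fold changes of the tested genes other than ADAMTS4 (rows, grouped as TIMP, MMP, ADAMTS and ADAM) in 7 comparisons (columns), with a dot where the gene was called; colours stop at the limits of the scale. TIMP2, TIMP3, MMP9, MMP14 and ADAMTS15 are red in all 5 columns over Control, MMP13 and ADAMTS18 are blue in all 5, and TIMP4 and MMP7 differ between the factors.

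The 3 inhibitors did not move as a block. TIMP2, which blocks MMPs and also links MMP14 to the precursor of MMP2, rose in all 5 factors. It stood at 221 and 266 CPM in OSR1, 252 and 275 in OSR2, 248 and 222 in EGR1, 329 and 247 in KLF2, 459.5 and 443 in KLF4, against 101 and 129 CPM in Control. No factor library overlapped the Control libraries, and both KLF4 libraries were above all 8 other factor libraries. The log2 fold changes were 1.09 for OSR1, 1.20 for OSR2, 1.04 for EGR1, 1.33 for KLF2 and 1.98 for KLF4 (SE 0.16 each, adjusted p from 1.5e-05 to 0.001).

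TIMP3, the inhibitor that binds to matrix and also blocks ADAM17 and the aggrecan-cutting ADAMTS enzymes, had the widest range of any gene above 5 CPM. It measured 83.3 and 173 CPM in OSR1, 109.6 and 137 in OSR2, 90.4 and 76.4 in EGR1, 192 and 134 in KLF2, 324 and 346 in KLF4, against 39.0 and 44.4 CPM in Control. The factor libraries all lay above Control, the KLF4 libraries lay far above the rest, and the OSR1 libraries were well apart from each other. Log2 fold changes over Control were 1.62 for OSR1, 1.57 for OSR2, 1.00 for EGR1, 1.97 for KLF2 and 3.01 for KLF4 (SE 0.32 each, adjusted p from 0.00021 to 0.034). TIMP3 missed the threshold in EGR1 without Control replicate 1 or 2, EGR1 replicate 1 or 2 or KLF4 replicate 1 or 2 or with library totals alone (0.88 to 1.12, adjusted p from 0.051 to 0.16), and moved to 1.00 without OSR1 replicate 2 in OSR1.

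TIMP4, an inhibitor found in few tissues of mammals, went the other way. Its levels were 36.0 and 35.8 CPM in OSR1, 32.2 and 28.5 in OSR2, 93.5 and 97.3 in EGR1, 61.0 and 57.6 in KLF2, 75.0 and 69.0 in KLF4, against 106 and 108 CPM in Control. All 10 factor libraries were below Control, with the OSR1 and OSR2 libraries lowest and the EGR1 libraries just under Control. TIMP4 fell by 1.58 in OSR1 (SE 0.08, adjusted p = 7.1e-07), by 1.82 in OSR2 (adjusted p = 2.3e-07), by 0.85 in KLF2 (adjusted p = 3e-05) and by 0.57 in KLF4 (adjusted p = 0.00021) on the log2 scale. EGR1 was not called (log2 fold change -0.17, SE 0.08, adjusted p = 0.11). TIMP4 and the cartilage markers were both lowest in OSR1 and OSR2. Of the 15 cartilage markers, 0 higher and 15 lower in OSR1, 0 higher and 15 lower in OSR2, 1 higher and 3 lower in EGR1, 0 higher and 10 lower in KLF2 and 1 higher and 9 lower in KLF4 were called. Their median log2 fold changes were -2.01 for OSR1, -2.64 for OSR2, -0.03 for EGR1, -0.64 for KLF2 and -0.58 for KLF4, and the part of cartilage cells in the result was not tested. These marker calls stand against 24.6% to 28.9% of all features called higher and 20.5% to 25.5% called lower. The endothelial markers KDR, TIE1, CLDN5, CDH5 and EMCN, like TIMP2 and TIMP3, were highest in KLF4. Other markers of that list were not: TEK and FLT1 were highest in OSR2. PECAM1 was lower in KLF4 (43.5 and 42.0 CPM) than in Control (110 and 103 CPM). The part of endothelial cells in the TIMP2 and TIMP3 results was not tested. Summed over the 3 inhibitors, CPM was 857 to 859 in KLF4 and 340.4 to 582 in the other factors, against 246 to 281 in Control.

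**Figure D2:**
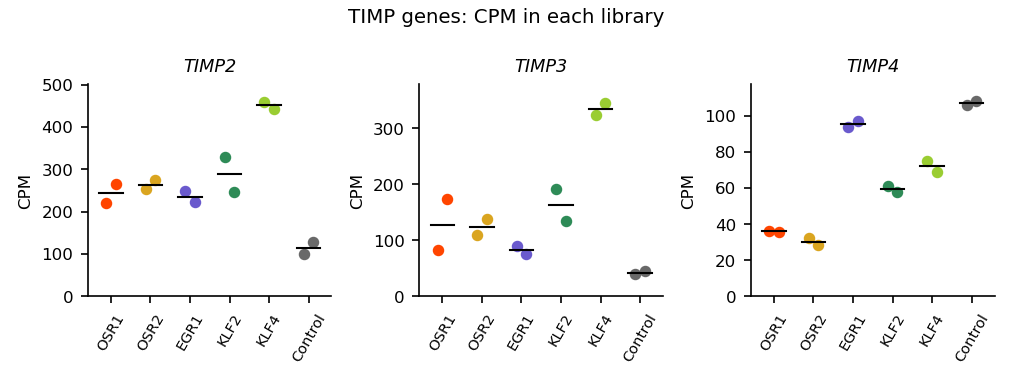
CPM of TIMP2, TIMP3 and TIMP4 in each of the 12 libraries (points; replicate 1 left, replicate 2 right), with the group mean as a line. TIMP2 and TIMP3 are highest in KLF4 and lowest in Control, while TIMP4 is highest in Control and lowest in OSR2.

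Among the MMPs, the gelatinase MMP2 was called over Control in no factor, while the membrane-bound MMP14 and MMP15 rose in all 5. MMP2, which cuts denatured collagen and collagen type IV and is activated at the surface by MMP14, was at 954 and 965 CPM in OSR1, 1027 and 895 in OSR2, 716 and 815 in EGR1, 756 and 922 in KLF2, 767 and 715 in KLF4, against 896 and 895 CPM in Control. Factor and Control libraries overlapped in OSR2 and KLF2, and no factor was called over Control: the log2 fold changes were 0.10 for OSR1, 0.10 for OSR2, -0.23 for EGR1, -0.09 for KLF2 and -0.27 for KLF4 (SE 0.11 each, adjusted p from 0.055 to 0.49).

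MMP14, the membrane-bound collagenase that activates MMP2, rose in all 5 factors. Its levels were 30.1 and 87.1 CPM in OSR1, 55.9 and 53.3 in OSR2, 59.4 and 38.9 in EGR1, 65.7 and 41.5 in KLF2, 87.8 and 87.8 in KLF4, against 13.9 and 19.6 CPM in Control. Every factor library lay above both Control libraries, but the replicates of OSR1 differed widely, and those of EGR1 and KLF2 were also apart. On the log2 scale the changes over Control were 1.80 for OSR1, 1.70 for OSR2, 1.55 for EGR1, 1.67 for KLF2 and 2.39 for KLF4 (SE 0.46 each, adjusted p from 0.0036 to 0.028). MMP14 missed the threshold in OSR1, OSR2, EGR1 and KLF2 without Control replicate 1. The MMP14 call was also lost in OSR1 without OSR1 replicate 2 or with only the groups compared, in OSR2 without OSR2 replicate 2, in EGR1 without Control replicate 2 or EGR1 replicate 1, and in KLF2 without KLF2 replicate 1 (0.84 to 1.83 and adjusted p from 0.052 to 0.16 over all these fits). The MMP14 call in KLF4 held in every alternative. The RefSeq table used for names has no MMP14 or MMP23B entry, so the names of these features rest on the count tables.

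MMP15, a further transmembrane MMP, also rose in all 5. It was at 102 and 180.4 CPM in OSR1, 142 and 144 in OSR2, 148 and 112 in EGR1, 145 and 137 in KLF2, 157 and 162 in KLF4, against 52.6 and 72.1 CPM in Control. All factor libraries were above Control and the OSR1 pair was again the most spread. This gave log2 fold changes over Control of 1.18 for OSR1, 1.20 for OSR2, 1.06 for EGR1, 1.17 for KLF2 and 1.35 for KLF4 (SE 0.26 each, adjusted p from 0.0029 to 0.012). MMP15 missed the threshold in OSR1, EGR1 and KLF2 without Control replicate 1, and moved to 0.72 without OSR1 replicate 2 in OSR1. The MMP15 call was also lost in OSR1 with only the groups compared, and in EGR1 without EGR1 replicate 1 (0.85 to 1.16 and adjusted p from 0.052 to 0.086 over all these fits).

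The other membrane-linked MMPs did not share that pattern. MMP16, a transmembrane MMP, had 97.8 to 164 CPM in factor libraries, against 153 and 156 CPM in Control, and fell in OSR2 (log2 fold change -0.33, SE 0.12, adjusted p = 0.045) and KLF2 (log2 fold change -0.42, SE 0.12, adjusted p = 0.015). MMP16 missed the threshold in OSR2 and KLF2 without Control replicate 1 or 2, and moved to -0.69 without KLF2 replicate 1 in KLF2. The MMP16 call was also lost in OSR2 without OSR2 replicate 1 or 2, EGR1 replicate 1 or 2 or KLF4 replicate 1 or 2 or with the replicate number as a block, and in KLF2 without KLF2 replicate 2 or with only the groups compared (-0.43 to -0.22 and adjusted p from 0.052 to 0.22 over all these fits). MMP24, a transmembrane MMP best known from nervous tissue, fell in EGR1 (log2 fold change -0.35, SE 0.08, adjusted p = 0.0044), KLF2 (log2 fold change -0.38, SE 0.08, adjusted p = 0.002) and KLF4 (log2 fold change -0.58, SE 0.08, adjusted p = 0.00016). MMP17, which is held in the membrane by a lipid anchor, had 216 and 269 CPM in OSR1, 210.3 and 206 in OSR2, 232 and 189 in EGR1, 152 and 121 in KLF2, 106 and 116 in KLF4, against 151 and 149 CPM in Control. It was above Control in both OSR groups and EGR1 and below it in KLF4, with log2 fold changes of 0.69 for OSR1, 0.47 for OSR2 and 0.49 for EGR1, and -0.43 for KLF4 (SE 0.14 each, adjusted p from 0.0023 to 0.021). MMP17 missed the threshold in OSR2, EGR1 and KLF4 without Control replicate 1 or 2. The MMP17 call was also lost in OSR2 without OSR2 replicate 1 or 2, in EGR1 without EGR1 replicate 1, and in KLF4 without KLF4 replicate 1 or 2 (adjusted p from 0.051 to 0.13 over all these fits). MMP23B, an unusual MMP with a signal anchor, had 57.1 and 50.2 CPM in OSR1, 67.7 and 63.5 in OSR2, 35.6 and 34.4 in EGR1, 34.5 and 35.1 in KLF2, 32.0 and 29.6 in KLF4, against 39.5 and 41.3 CPM in Control. The OSR libraries were above Control and those of the other 3 factors below it. MMP23B rose in OSR1 (log2 fold change 0.41, SE 0.08, adjusted p = 0.0026) and OSR2 (log2 fold change 0.70, SE 0.08, adjusted p = 9.3e-05) and fell in KLF4 (log2 fold change -0.39, SE 0.08, adjusted p = 0.0029).

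The second gelatinase, MMP9, known from macrophages, osteoclasts and invading vessels, rose in all 5 factors. It was at 13.0 and 20.2 CPM in OSR1, 15.3 and 19.7 in OSR2, 17.5 and 18.1 in EGR1, 22.3 and 18.1 in KLF2, 28.7 and 28.3 in KLF4, against 4.41 and 5.25 CPM in Control. The factor libraries were well above Control and the KLF4 pair was highest. Over Control, its log2 fold changes were 1.78 for OSR1, 1.86 for OSR2, 1.88 for EGR1, 2.06 for KLF2 and 2.56 for KLF4 (SE 0.21 each, adjusted p from 1.5e-05 to 0.00027). The 13 macrophage markers summed to 47.0 to 57.4 CPM in factor libraries and 45.8 to 48.0 CPM in Control, with none at 0. Of these, the calls were 6 higher and 1 lower in OSR1, 6 higher and 1 lower in OSR2, 4 higher and 2 lower in EGR1, 5 higher and 0 lower in KLF2 and 6 higher and 0 lower in KLF4 (medians from 0.13 to 0.72). Over the same comparisons 24.6% to 28.9% of all features were called higher and 20.5% to 25.5% lower. CSF1R, the macrophage growth factor receptor, rose in all 5 and had 8.61 and 8.65 CPM in OSR1, 9.89 and 9.27 in OSR2, 7.70 and 7.35 in EGR1, 8.07 and 6.46 in KLF2, 8.05 and 6.59 in KLF4, against 5.53 and 5.46 CPM in Control. CD74, a chaperone of antigen presentation, fell in OSR1, OSR2 and EGR1 and had 13.2 and 10.9 CPM in OSR1, 10.3 and 12.2 in OSR2, 12.1 and 12.1 in EGR1, 15.9 and 14.2 in KLF2, 18.7 and 15.4 in KLF4, against 17.0 and 18.4 CPM in Control. The osteoclast markers summed to 361 to 480.1 CPM in factor libraries and 364 to 365 CPM in Control, most of it from NFATC1 (238 to 368 CPM in factor libraries). Of the 7 tested, the calls were 2 higher and 0 lower in OSR1, 2 higher and 1 lower in OSR2, 3 higher and 0 lower in EGR1, 2 higher and 0 lower in KLF2 and 2 higher and 1 lower in KLF4 (medians from -0.11 to 0.24), and the protease CTSK was the 1 marker that rose in all 5. The endothelial markers summed to 387 to 500.0 CPM in factor libraries and 409 to 417 CPM in Control, with ERG making up 252 to 339 CPM of it in factor libraries. Of the 10 tested, the calls were 6 higher and 2 lower in OSR1, 5 higher and 2 lower in OSR2, 1 higher and 1 lower in EGR1, 4 higher and 2 lower in KLF2 and 6 higher and 1 lower in KLF4, with median log2 fold changes of 0.46 for OSR1, 0.46 for OSR2, 0.04 for EGR1, 0.17 for KLF2 and 1.13 for KLF4. KDR, a receptor of vascular growth factor, had 12.5 and 13.1 CPM in OSR1, 12.3 and 13.5 in OSR2, 12.4 and 12.5 in EGR1, 28.1 and 23.4 in KLF2, 109 and 106 in KLF4, against 13.5 and 13.4 CPM in Control, and PECAM1, an adhesion protein of vessels, fell in all 5. The part of these cell types in the MMP9 result was not tested.

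MMP13, the collagenase of hypertrophic cartilage and bone, fell in all 5 factors. It had 8.71 and 8.34 CPM in OSR1, 8.99 and 8.58 in OSR2, 18.2 and 20.9 in EGR1, 11.9 and 14.8 in KLF2, 15.5 and 15.8 in KLF4, against 27.5 and 31.0 CPM in Control. The 10 factor libraries were all below Control, with OSR1 and OSR2 lowest and EGR1 nearest to Control. Relative to Control, the log2 fold changes were -1.78 for OSR1, -1.74 for OSR2, -0.58 for EGR1, -1.13 for KLF2 and -0.90 for KLF4 (SE 0.12 each, adjusted p from 3.4e-06 to 0.004). In whole cultures, fewer cells that make a gene and less RNA per cell cannot be told apart, and this holds for every result here. RUNX2, a transcription factor that drives MMP13 in bone and hypertrophic cartilage, fell in OSR1 (log2 fold change -1.11, SE 0.09, adjusted p = 1.2e-05) and OSR2 (log2 fold change -1.49, SE 0.09, adjusted p = 1.5e-06) and was not called in EGR1, KLF2 or KLF4. Of the 9 markers of hypertrophic cartilage and bone, the calls were 1 higher and 5 lower in OSR1, 2 higher and 5 lower in OSR2, 2 higher and 1 lower in EGR1, 6 higher and 1 lower in KLF2 and 6 higher and 1 lower in KLF4, with median log2 fold changes of -0.70 for OSR1, -0.90 for OSR2, 0.03 for EGR1, 0.75 for KLF2 and 0.74 for KLF4. The shares of all features were 24.6% to 28.9% called higher and 20.5% to 25.5% called lower. IBSP, a bone matrix protein, fell in OSR1 (log2 fold change -2.08, SE 0.45, adjusted p = 0.0034) and OSR2 (log2 fold change -1.82, SE 0.44, adjusted p = 0.0058) and rose in KLF2 (log2 fold change 2.75, SE 0.35, adjusted p = 2e-04) and KLF4 (log2 fold change 4.19, SE 0.34, adjusted p = 1.4e-05). The part of these cells in the MMP13 result was not tested.

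MMP11, a stromelysin that furin activates inside the cell, had 13.3 and 14.9 CPM in OSR1, 11.3 and 14.6 in OSR2, 30.9 and 25.7 in EGR1, 18.1 and 17.0 in KLF2, 14.3 and 13.6 in KLF4, against 8.65 and 10.1 CPM in Control. The EGR1 libraries were highest and lay clear of all others, and every factor library was above Control. The log2 fold changes were 0.59 for OSR1, 0.47 for OSR2, 1.60 for EGR1, 0.90 for KLF2 and 0.58 for KLF4 (SE 0.15 each, adjusted p from 9.2e-05 to 0.022). MMP11 missed the threshold in OSR1, OSR2 and KLF4 without Control replicate 1. The MMP11 call was also lost in OSR2 without OSR2 replicate 2 (0.27 to 0.49 and adjusted p from 0.069 to 0.2 over all these fits). A current RefSeq gene table holds this name only as a synonym of SMARCB1, which the count tables list separately, so the identity of the MMP11 feature is uncertain.

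MMP7, a small secreted protease known from epithelia, differed between the OSR and KLF factors. It had 0.487 and 0.540 CPM in OSR1, 0.433 and 0.437 in OSR2, 0.921 and 1.21 in EGR1, 1.43 and 1.50 in KLF2, 5.55 and 4.11 in KLF4, against 1.61 and 1.87 CPM in Control. Both KLF4 libraries were above Control, and the OSR1, OSR2 and EGR1 libraries were below it. Log2 fold changes over Control were -1.76 for OSR1, -2.00 for OSR2 and -0.71 for EGR1, and 1.47 for KLF4 (SE 0.19 to 0.22, adjusted p from 5.1e-05 to 0.016), while KLF2 was not called (log2 fold change -0.25, SE 0.20, adjusted p = 0.32). MMP7 missed the threshold in EGR1 without Control replicate 2 or EGR1 replicate 1 (-0.60 to -0.52, adjusted p from 0.096 to 0.14). The 12 epithelial markers summed to 244 to 297 CPM in KLF4 and 69.3 to 133 CPM in the other factors, against 87.5 to 91.6 CPM in Control, and none was at 0. The calls were 0 higher and 0 lower in OSR1, 0 higher and 0 lower in OSR2, 0 higher and 0 lower in EGR1, 1 higher and 0 lower in KLF2 and 6 higher and 1 lower in KLF4 (medians from -0.02 to 0.86). Among all features, 24.6% to 28.9% were called higher and 20.5% to 25.5% lower over these comparisons. EPCAM, a surface protein of epithelial cells, was not called in KLF4 (log2 fold change 0.46, SE 0.49, adjusted p = 0.45), and KRT14, a keratin of the basal epidermis, rose there (log2 fold change 2.39, SE 0.56, adjusted p = 0.0091). The part of epithelial cells in the MMP7 result was not tested.

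MMP28, a secreted MMP of epithelia and muscle, rose in all 5 factors. It had 5.85 and 6.45 CPM in OSR1, 6.16 and 6.32 in OSR2, 3.91 and 3.64 in EGR1, 4.70 and 5.05 in KLF2, 3.84 and 4.43 in KLF4, against 2.10 and 2.34 CPM in Control. No factor library overlapped Control. On the log2 scale the changes over Control were 1.47 for OSR1, 1.49 for OSR2, 0.76 for EGR1, 1.13 for KLF2 and 0.90 for KLF4 (SE 0.14 each, adjusted p from 1.6e-05 to 0.0018). MMP1, MMP10 and MMP27, secreted enzymes of the collagenase and stromelysin type, were scarce, each under 2 CPM in every library. MMP1 (2 to 7 counts in factor libraries, against 15 and 12 counts in Control) and MMP27 fell in all 5 factors and MMP10 fell in OSR1, OSR2 and EGR1. For MMP1 the log2 fold changes were -1.91 for OSR1, -2.20 for OSR2, -1.89 for EGR1, -2.28 for KLF2 and -2.28 for KLF4 (SE 0.57 to 0.63, adjusted p from 0.0073 to 0.017), for MMP27 -0.56 for OSR1, -0.68 for OSR2, -1.42 for EGR1, -0.54 for KLF2 and -0.75 for KLF4 (SE 0.19 to 0.20, adjusted p from 0.00056 to 0.035). For MMP10 they were -0.89 for OSR1, -1.20 for OSR2 and -1.43 for EGR1 (SE 0.27 to 0.28, adjusted p from 0.0028 to 0.019). Reads of these paralogs may be shared between them, so the values are uncertain. MMP1 missed the threshold in OSR1, OSR2, EGR1, KLF2 and KLF4 without Control replicate 1, and moved to -3.40 without OSR2 replicate 2 in OSR2. The MMP1 call was also lost in OSR1, OSR2, KLF2 and KLF4 with DESeq2, in OSR1 without OSR1 replicate 2, in OSR2 without OSR2 replicate 1, in EGR1 without EGR1 replicate 1 or 2, and in KLF4 without KLF4 replicate 2 (-2.34 to -1.51 and adjusted p from 0.05 to 0.12 over all these fits). MMP27 missed the threshold in OSR1, OSR2, KLF2 and KLF4 without Control replicate 2. The MMP27 call was also lost in OSR1 and KLF2 with only the groups compared or DESeq2, in KLF2 and KLF4 without KLF4 replicate 2, in OSR1 without OSR1 replicate 1 or 2, in OSR2 without OSR2 replicate 2, and in KLF2 without KLF2 replicate 1 or 2 or KLF4 replicate 1 (-0.66 to -0.38 and adjusted p from 0.051 to 0.22 over all these fits). MMP10 missed the threshold in OSR1 and OSR2 without Control replicate 2. The MMP10 call was also lost in OSR1 without OSR1 replicate 1 or 2 or with DESeq2 (-0.91 to -0.60 and adjusted p from 0.052 to 0.17 over all these fits).

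**Figure D3:**
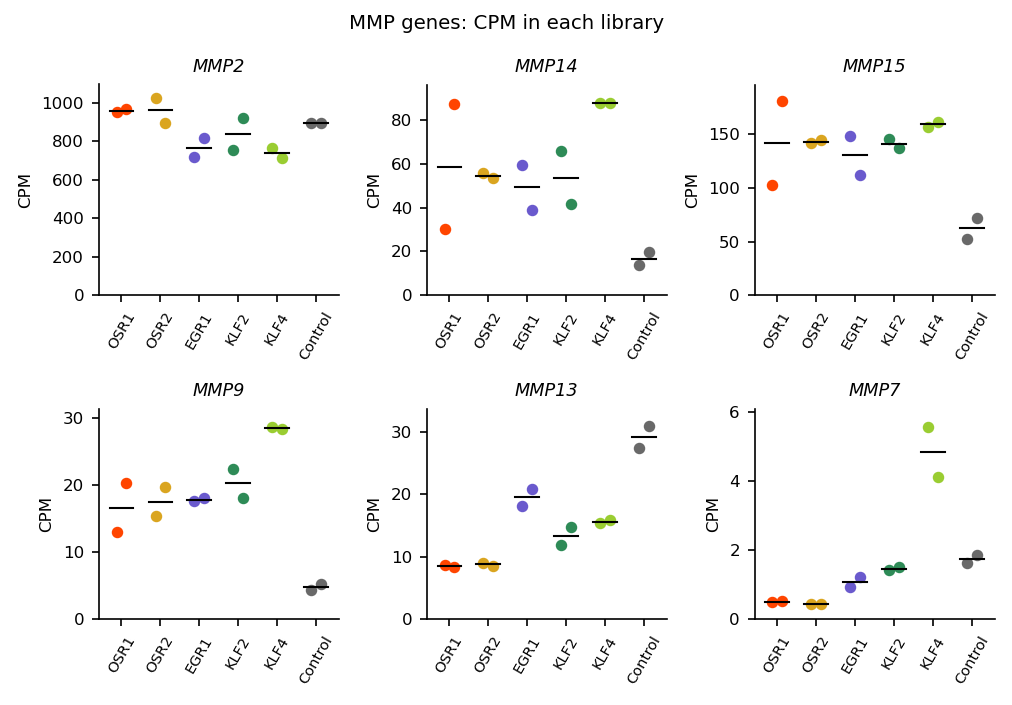
CPM of 6 MMP genes in each library (points; replicate 1 left, replicate 2 right), with the group mean as a line. MMP2 lies between 715 and 1027 CPM in all groups, MMP14, MMP15 and MMP9 are lowest in Control, MMP13 is highest in Control, and MMP7 is highest in KLF4.

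The ADAMTS enzymes that cut aggrecan and versican rose in part and fell in part. ADAMTS1, a versican protease, was at 229.6 and 265 CPM in OSR1, 280.2 and 296 in OSR2, 182 and 186 in EGR1, 145 and 142 in KLF2, 123 and 125 in KLF4, against 103 and 103 CPM in Control. The OSR1 and OSR2 libraries were highest, EGR1 was between, and all factor libraries exceeded Control. This gave log2 fold changes over Control of 1.26 for OSR1, 1.48 for OSR2, 0.84 for EGR1, 0.48 for KLF2 and 0.27 for KLF4 (SE 0.08 each, adjusted p from 4.3e-07 to 0.012). ADAMTS1 missed the threshold in KLF4 without Control replicate 1 or 2 or KLF4 replicate 2 (0.26 to 0.27, adjusted p from 0.052 to 0.066). ADAMTS5, the main aggrecanase of mouse cartilage, had 49.8 and 54.8 CPM in OSR1, 59.1 and 56.5 in OSR2, 40.5 and 39.7 in EGR1, 53.5 and 46.3 in KLF2, 51.4 and 54.1 in KLF4, against 33.4 and 31.1 CPM in Control. No factor library overlapped Control, and EGR1 was closest to it. Over Control, its log2 fold changes were 0.70 for OSR1, 0.84 for OSR2, 0.31 for EGR1, 0.63 for KLF2 and 0.71 for KLF4 (SE 0.09 each, adjusted p from 4.2e-05 to 0.016). ADAMTS5 missed the threshold in EGR1 without Control replicate 2 or EGR1 replicate 1 or with library totals alone (0.23 to 0.30, adjusted p from 0.065 to 0.099). ADAMTS4, the other classical aggrecanase, was near the limit of detection, with 4 and 8 counts in OSR1, 17 and 20 in OSR2, 10 and 3 in EGR1, 14 and 7 in KLF2, 13 and 10 in KLF4, against 1 and 0 counts in Control. It was called in OSR2 (adjusted p = 0.004), KLF2 (adjusted p = 0.021) and KLF4 (adjusted p = 0.011), and no fold change is given because Control had 1 count in all. The call ended in KLF2 without Control replicate 2 (adjusted p = 0.13), without KLF2 replicate 1 (adjusted p = 0.11) and with DESeq2 (adjusted p = 0.064) and in KLF4 without Control replicate 2 (adjusted p = 0.082) and without KLF4 replicate 1 (adjusted p = 0.052).

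ADAMTS15, another protease of versican and aggrecan, rose in all 5 factors. It had 162 and 224 CPM in OSR1, 213 and 209.9 in OSR2, 91.3 and 78.2 in EGR1, 201 and 183 in KLF2, 182 and 182 in KLF4, against 38.6 and 43.1 CPM in Control. All factor libraries were above Control, and EGR1 was lower than the other 4 factors. Relative to Control, the log2 fold changes were 2.24 for OSR1, 2.37 for OSR2, 1.05 for EGR1, 2.24 for KLF2 and 2.16 for KLF4 (SE 0.14 each, adjusted p from 1.4e-06 to 0.00047). ADAMTS8, a related enzyme, had 22.7 and 26.8 CPM in OSR1, 22.8 and 24.9 in OSR2, 49.4 and 34.2 in EGR1, 23.4 and 20.3 in KLF2, 18.6 and 18.6 in KLF4, against 18.3 and 19.2 CPM in Control. Both EGR1 libraries were above the other 10, and the OSR1, OSR2 and KLF2 libraries also exceeded Control. It rose in EGR1 (log2 fold change 1.16, SE 0.16, adjusted p = 0.00052) and was called in no other factor (0.40 for OSR1, 0.35 for OSR2, 0.22 for KLF2 and -0.01 for KLF4). ADAMTS9, which cuts versican and acts along the secretory route, rose in OSR2 (log2 fold change 0.28, SE 0.11, adjusted p = 0.049), KLF2 (log2 fold change 0.58, SE 0.11, adjusted p = 0.0015) and KLF4 (log2 fold change 0.46, SE 0.11, adjusted p = 0.0046). ADAMTS9 missed the threshold in OSR2 without Control replicate 1 or 2, OSR2 replicate 1 or 2, EGR1 replicate 1 or 2, KLF2 replicate 1 or KLF4 replicate 1 or 2 or with RLE size factors, library totals alone, the replicate number as a block or DESeq2 (0.23 to 0.34, adjusted p from 0.058 to 0.2). Its nearest relative ADAMTS20 was scarcer and fell, with 6.25 and 6.32 CPM in OSR1, 6.53 and 6.56 in OSR2, 8.76 and 9.22 in EGR1, 4.89 and 3.34 in KLF2, 4.07 and 4.61 in KLF4, against 9.62 and 9.10 CPM in Control. The KLF2 and KLF4 libraries were lowest and the EGR1 libraries overlapped Control. The log2 fold changes were -0.57 for OSR1, -0.52 for OSR2, -1.18 for KLF2 and -1.11 for KLF4 (SE 0.16 each, adjusted p from 0.00029 to 0.022). EGR1 was not called (log2 fold change -0.06, SE 0.16, adjusted p = 0.79). ADAMTS20 missed the threshold in OSR1 and OSR2 without Control replicate 1. The ADAMTS20 call was also lost in OSR2 without Control replicate 2 or OSR2 replicate 1 or 2 (-0.55 to -0.47 and adjusted p from 0.055 to 0.1 over all these fits). Of the substrates, ACAN fell in OSR1 (log2 fold change -2.29, adjusted p = 1.6e-05), OSR2 (-2.81, adjusted p = 3.8e-06), KLF2 (-0.59, adjusted p = 0.019) and KLF4 (-0.58, adjusted p = 0.02), and VCAN was called in no comparison.

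The 3 procollagen N-proteinases, which remove the N-terminal propeptide of fibrillar procollagens, moved apart. ADAMTS3, which also processes the lymphatic growth factor VEGFC, had 793 and 682 CPM in OSR1, 748 and 689 in OSR2, 851 and 827 in EGR1, 664 and 586 in KLF2, 515 and 550.3 in KLF4, against 958 and 913 CPM in Control. All factor libraries were below Control, with KLF4 lowest. It fell in OSR1, OSR2, KLF2 and KLF4 with log2 fold changes of -0.34 for OSR1, -0.38 for OSR2, -0.58 for KLF2 and -0.81 for KLF4 (SE 0.10 each, adjusted p from 8.9e-05 to 0.013). EGR1 was not called (log2 fold change -0.16, SE 0.10, adjusted p = 0.21). ADAMTS3 missed the threshold in OSR1 and OSR2 without Control replicate 1. The ADAMTS3 call was also lost in OSR1 without OSR1 replicate 2, and in OSR2 without OSR2 replicate 2 (-0.34 to -0.23 and adjusted p from 0.056 to 0.11 over all these fits). ADAMTS14 rose, with 105 and 120.0 CPM in OSR1, 95.4 and 108 in OSR2, 146 and 114 in EGR1, 201 and 155 in KLF2, 136 and 147 in KLF4, against 83.9 and 88.0 CPM in Control. Every factor library was above Control and KLF2 replicate 1 was highest. Log2 fold changes over Control were 0.39 for OSR1, 0.60 for EGR1, 1.05 for KLF2 and 0.72 for KLF4 (SE 0.14 each, adjusted p from 0.00033 to 0.044). OSR2 was not called (log2 fold change 0.24, SE 0.14, adjusted p = 0.19). ADAMTS14 missed the threshold in OSR1 and EGR1 without Control replicate 1. The ADAMTS14 call was also lost in OSR1 without Control replicate 2, OSR1 replicate 2, OSR2 replicate 1 or 2 or KLF4 replicate 1 or 2 or with RLE size factors or the replicate number as a block, and in EGR1 without EGR1 replicate 1 (0.29 to 0.57 and adjusted p from 0.053 to 0.19 over all these fits). ADAMTS2, the classical enzyme for type I procollagen, had 78.1 and 87.1 CPM in OSR1, 91.5 and 93.1 in OSR2, 116 and 106 in EGR1, 156 and 112 in KLF2, 157 and 161 in KLF4, against 118 and 107 CPM in Control. OSR1 and OSR2 lay below Control, KLF4 above it, and EGR1 overlapped it. It fell in OSR1 (log2 fold change -0.45, SE 0.13, adjusted p = 0.017) and rose in KLF4 (log2 fold change 0.49, SE 0.13, adjusted p = 0.0092). ADAMTS2 missed the threshold in OSR1 without Control replicate 1 or OSR1 replicate 1. The ADAMTS2 call was also lost in KLF4 without Control replicate 2 (adjusted p from 0.064 to 0.11 over all these fits). The type I collagen gene COL1A1 rose in all 5 factors, with log2 fold changes of 1.49 for OSR1, 1.50 for OSR2, 1.56 for EGR1, 1.67 for KLF2 and 2.09 for KLF4 (SE 0.29 each, adjusted p from 0.00065 to 0.0037).

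ADAMTS12 and ADAMTS7 cut the cartilage and tendon protein COMP. ADAMTS12 was at 202 and 206 CPM in OSR1, 236 and 231 in OSR2, 148 and 142 in EGR1, 169 and 142 in KLF2, 144 and 164 in KLF4, against 113 and 107 CPM in Control. Control was below every factor library, and OSR2 was highest. On the log2 scale the changes over Control were 0.89 for OSR1, 1.08 for OSR2, 0.40 for EGR1, 0.50 for KLF2 and 0.49 for KLF4 (SE 0.09 each, adjusted p from 8.4e-06 to 0.0056). ADAMTS7 rose in OSR1, OSR2, KLF2 and KLF4 by log2 fold changes of 0.77 for OSR1, 0.72 for OSR2, 0.58 for KLF2 and 0.48 for KLF4 (SE 0.15 each, adjusted p from 0.0019 to 0.019), and was not called in EGR1 (log2 fold change 0.09, SE 0.15, adjusted p = 0.63). ADAMTS7 missed the threshold in KLF2 and KLF4 without Control replicate 1. The ADAMTS7 call was also lost in KLF2 without KLF2 replicate 1, and in KLF4 without KLF4 replicate 2 (0.34 to 0.50 and adjusted p from 0.07 to 0.15 over all these fits). COMP itself fell in all 5, with log2 fold changes of -2.23 for OSR1, -2.13 for OSR2, -0.73 for EGR1, -0.91 for KLF2 and -1.13 for KLF4 (SE 0.14 each, adjusted p from 2.1e-06 to 0.0022).

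ADAMTS10 and ADAMTS6, a pair of paralogs tied to fibrillin microfibrils, changed in opposite directions. ADAMTS10 rose in all 5 factors, with 35.9 to 50.2 CPM in factor libraries against 23.1 and 25.0 CPM in Control and log2 fold changes of 0.79 for OSR1, 0.86 for OSR2, 0.77 for EGR1, 0.98 for KLF2 and 0.89 for KLF4 (SE 0.12 each, adjusted p from 0.00013 to 0.00083). ADAMTS6 fell in all 5 and had 35.9 and 33.6 CPM in OSR1, 36.5 and 34.4 in OSR2, 39.6 and 40.8 in EGR1, 30.8 and 28.0 in KLF2, 38.2 and 39.1 in KLF4, against 49.3 and 46.6 CPM in Control. No factor library reached Control, and KLF2 was lowest. This gave log2 fold changes over Control of -0.46 for OSR1, -0.44 for OSR2, -0.25 for EGR1, -0.71 for KLF2 and -0.31 for KLF4 (SE 0.08 each, adjusted p from 9.8e-05 to 0.025). ADAMTS6 missed the threshold in EGR1 and KLF4 without Control replicate 1. The ADAMTS6 call was also lost in EGR1 without Control replicate 2 or EGR1 replicate 1 or 2, and in KLF4 without KLF4 replicate 1 (-0.29 to -0.21 and adjusted p from 0.055 to 0.16 over all these fits). The fibrillin gene FBN1 rose in all 5 factors, with log2 fold changes of 1.19 for OSR1, 1.45 for OSR2, 0.83 for EGR1, 1.43 for KLF2 and 1.88 for KLF4 (SE 0.12 each, adjusted p from 2.8e-06 to 7e-04).

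ADAMTS17, a relative also linked to fibrillin, had 94.9 and 107 CPM in OSR1, 106 and 104 in OSR2, 158 and 149.9 in EGR1, 96.9 and 79.9 in KLF2, 74.9 and 84.5 in KLF4, against 105 and 103 CPM in Control. The EGR1 libraries were the highest, the KLF2 and KLF4 libraries were below Control, and OSR1 and OSR2 overlapped Control. ADAMTS17 rose in EGR1 (log2 fold change 0.57, SE 0.10, adjusted p = 0.0016) and fell in KLF4 (log2 fold change -0.38, SE 0.10, adjusted p = 0.0085). ADAMTS17 missed the threshold in KLF4 without KLF4 replicate 1 (-0.29, adjusted p = 0.085). ADAMTS19, its paralog, fell in KLF2 (log2 fold change -0.41, SE 0.11, adjusted p = 0.0079). ADAMTS19 in KLF2 missed the threshold without Control replicate 2 (-0.35, adjusted p = 0.06). ADAMTS18, best known from eye and organ development in mice, fell in all 5 factors. It was at 1.76 and 1.37 CPM in OSR1, 1.54 and 1.52 in OSR2, 3.19 and 2.89 in EGR1, 2.61 and 2.50 in KLF2, 2.91 and 3.09 in KLF4, against 8.20 and 7.86 CPM in Control. No factor library came near Control and the OSR libraries were lowest. Over Control, its log2 fold changes were -2.36 for OSR1, -2.39 for OSR2, -1.40 for EGR1, -1.65 for KLF2 and -1.42 for KLF4 (SE 0.15 each, adjusted p from 1.6e-06 to 0.00016). ADAMTS13, which cuts von Willebrand factor, was at 2.70 to 4.33 CPM in all libraries and fell in KLF4 (log2 fold change -0.53, SE 0.15, adjusted p = 0.013). ADAMTS13 in KLF4 missed the threshold without Control replicate 2 or KLF4 replicate 1 or 2 (-0.55 to -0.39, adjusted p from 0.057 to 0.12).

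**Figure D4:**
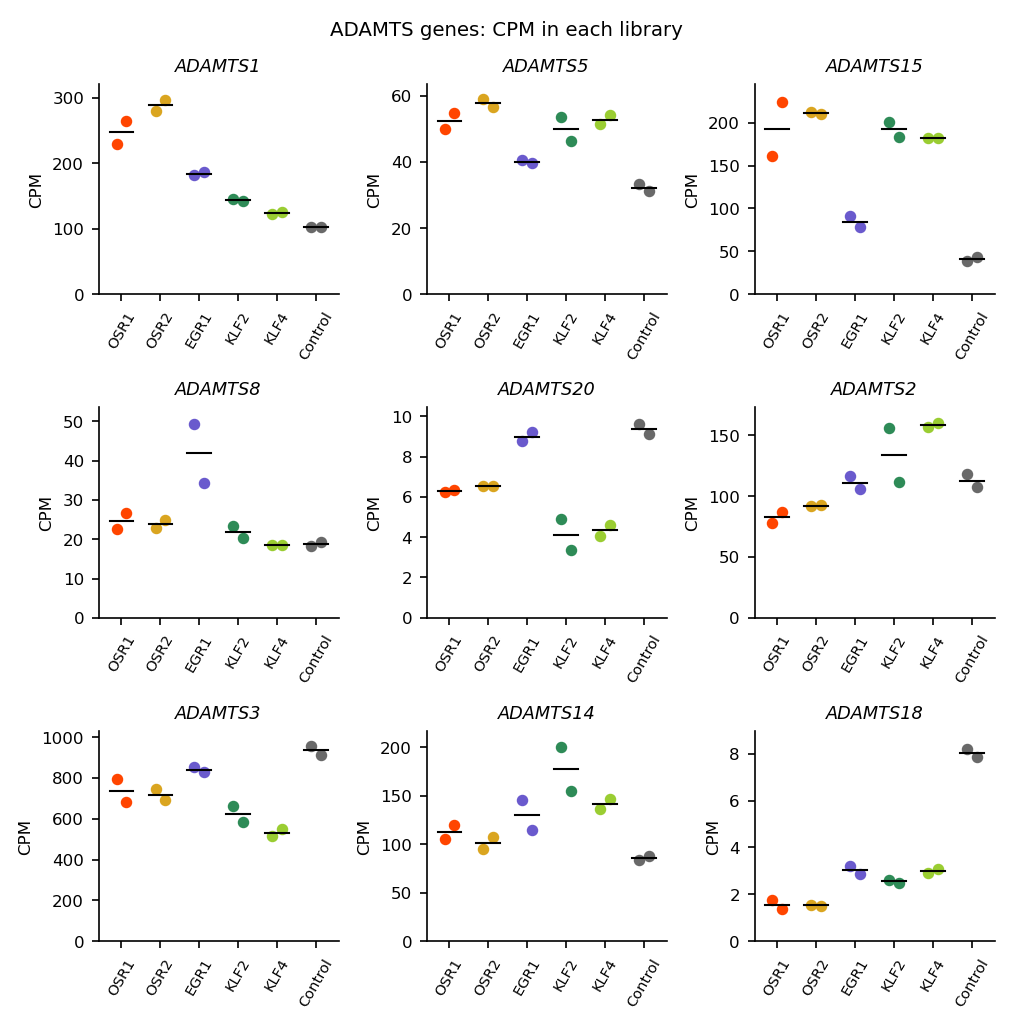
CPM of 9 ADAMTS genes in each library (points; replicate 1 left, replicate 2 right), with the group mean as a line. ADAMTS1 is highest in OSR2, ADAMTS8 in EGR1, ADAMTS2 in KLF4 and ADAMTS3 in Control, and ADAMTS18 is lower in all factor libraries than in Control.

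Of the 11 ADAM genes with known roles as sheddases or receptors, 4 rose in all 5 factors and 2 fell in all 5. Among all features 16.5% rose and 11.5% fell in all 5, so these counts alone say little. ADAM17, which sheds tumour necrosis factor and ligands of the EGF receptor, rose in all 5 factors. It was at 123 and 116 CPM in OSR1, 115 and 124 in OSR2, 125 and 119.7 in EGR1, 128 and 116 in KLF2, 134 and 136 in KLF4, against 84.0 and 82.3 CPM in Control. The 10 factor libraries were above Control and close to each other. Relative to Control, the log2 fold changes were 0.53 for OSR1, 0.52 for OSR2, 0.56 for EGR1, 0.55 for KLF2 and 0.70 for KLF4 (SE 0.07 each, adjusted p from 3.7e-05 to 0.00037). RHBDF2, which carries ADAM17 to the surface, rose in all 5 with log2 fold changes of 1.13 for OSR1, 1.16 for OSR2, 1.21 for EGR1, 1.25 for KLF2 and 1.31 for KLF4 (SE 0.18 each, adjusted p from 0.00027 to 0.00085). ADAM10, the main sheddase of Notch and cadherins, was at 133 and 146 CPM in OSR1, 149 and 137 in OSR2, 119 and 136 in EGR1, 125 and 130.1 in KLF2, 139 and 137 in KLF4, against 138 and 133 CPM in Control. The libraries of all 6 groups lay within a narrow range, no factor was called, and the log2 fold changes were 0.04 for OSR1, 0.08 for OSR2, -0.09 for EGR1, -0.09 for KLF2 and 0.03 for KLF4 (SE 0.08 each, adjusted p from 0.39 to 0.78).

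ADAM33, known from mesenchyme and smooth muscle, rose in all 5 factors. It had 111 and 130.4 CPM in OSR1, 122 and 134 in OSR2, 97.5 and 84.3 in EGR1, 142 and 112 in KLF2, 126 and 130.0 in KLF4, against 41.2 and 48.5 CPM in Control. All factor libraries were far above Control, with EGR1 lowest among them. The log2 fold changes were 1.43 for OSR1, 1.52 for OSR2, 1.02 for EGR1, 1.50 for KLF2 and 1.51 for KLF4 (SE 0.13 each, adjusted p from 1.3e-05 to 0.00042). ADAM8, known from leukocytes and osteoclasts, had 12.8 and 16.6 CPM in OSR1, 11.6 and 18.0 in OSR2, 17.0 and 15.5 in EGR1, 18.4 and 12.5 in KLF2, 18.6 and 19.3 in KLF4, against 6.81 and 8.73 CPM in Control. Every factor library was above Control, with wide pairs in OSR2 and KLF2. Log2 fold changes over Control were 0.92 for OSR1, 0.93 for OSR2, 1.06 for EGR1, 0.99 for KLF2 and 1.29 for KLF4 (SE 0.25 each, adjusted p from 0.0022 to 0.013). ADAM8 missed the threshold in OSR1, OSR2, EGR1 and KLF2 without Control replicate 1. The ADAM8 call was also lost in OSR1 without OSR1 replicate 2, in OSR2 without OSR2 replicate 2, in EGR1 without EGR1 replicate 1, and in KLF2 without KLF2 replicate 1 (0.58 to 1.00 and adjusted p from 0.05 to 0.096 over all these fits). ADAM9, a broadly made sheddase, rose by small amounts in all 5, 0.32 for OSR1, 0.41 for OSR2, 0.31 for EGR1, 0.26 for KLF2 and 0.20 for KLF4 on the log2 scale (SE 0.07 each, adjusted p from 0.00088 to 0.035). ADAM9 missed the threshold in KLF2 and KLF4 without Control replicate 1 or 2. The ADAM9 call was also lost in KLF2 without KLF2 replicate 1 or with only the groups compared, and in KLF4 without KLF4 replicate 1 or 2 or with RLE size factors, library totals alone, thinned counts or DESeq2 (0.14 to 0.27 and adjusted p from 0.051 to 0.14 over all these fits).

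ADAM15, which has an integrin-binding motif, had 5.86 and 13.3 CPM in OSR1, 8.76 and 11.1 in OSR2, 11.4 and 7.92 in EGR1, 14.9 and 11.9 in KLF2, 25.9 and 27.4 in KLF4, against 3.81 and 6.12 CPM in Control. The KLF4 libraries were far above the rest, and 1 OSR1 library lay below the higher Control library. It rose in KLF2 (log2 fold change 1.43, SE 0.39, adjusted p = 0.016) and KLF4 (log2 fold change 2.42, SE 0.39, adjusted p = 0.0014), and the log2 fold changes of 0.95 for OSR1, 1.00 for OSR2 and 0.96 for EGR1 were not called (SE 0.39 each, adjusted p from 0.063 to 0.078). ADAM15 missed the threshold in KLF2 without Control replicate 1 or KLF2 replicate 1 (1.13 to 1.23, adjusted p from 0.09 to 0.11). ADAM12, made in fusing muscle and activated mesenchyme, had 29.6 and 30.7 CPM in OSR1, 29.7 and 33.1 in OSR2, 27.2 and 25.1 in EGR1, 36.1 and 30.6 in KLF2, 26.6 and 26.9 in KLF4, against 26.8 and 27.6 CPM in Control. All 12 libraries lay between 25.1 and 36.1 CPM, and it was called higher in KLF2 (log2 fold change 0.29, SE 0.10, adjusted p = 0.029). ADAM12 in KLF2 missed the threshold without Control replicate 1 or 2 or KLF2 replicate 1 or with library totals alone or only the groups compared (0.13 to 0.32, adjusted p from 0.059 to 0.32). ADAM19, a sheddase of neuregulins, was at 1.58 to 3.27 CPM and fell in OSR2 (log2 fold change -0.61, SE 0.19, adjusted p = 0.019). ADAM19 in OSR2 missed the threshold without Control replicate 1 or OSR2 replicate 1 or 2 (-0.64 to -0.42, adjusted p from 0.059 to 0.16). The skeletal muscle markers summed to 668 to 1119 CPM in factor libraries and 989 to 1008 CPM in Control, and of the 14 tested 7 higher and 1 lower in OSR1, 6 higher and 2 lower in OSR2, 5 higher and 5 lower in EGR1, 4 higher and 6 lower in KLF2 and 3 higher and 9 lower in KLF4 were called (medians from -0.36 to 0.32). Across all features, 24.6% to 28.9% were called higher and 20.5% to 25.5% lower in these comparisons.

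ADAM11, ADAM22 and ADAM23 lack protease activity and act as receptors, best known for LGI proteins in the nervous system. ADAM23 fell in all 5 factors. It was at 25.1 and 23.9 CPM in OSR1, 24.7 and 24.9 in OSR2, 29.6 and 30.2 in EGR1, 27.1 and 28.5 in KLF2, 36.9 and 37.2 in KLF4, against 55.6 and 54.1 CPM in Control. All factor libraries were far below Control and the KLF4 libraries were nearest to it. On the log2 scale the changes over Control were -1.16 for OSR1, -1.14 for OSR2, -0.88 for EGR1, -0.98 for KLF2 and -0.57 for KLF4 (SE 0.07 each, adjusted p from 1.5e-06 to 0.00015). ADAM22 also fell in all 5, with 14.7 and 16.3 CPM in OSR1, 17.2 and 15.2 in OSR2, 11.3 and 11.5 in EGR1, 11.2 and 10.1 in KLF2, 10.2 and 10.7 in KLF4, against 21.8 and 19.6 CPM in Control. Again no factor library reached Control. This gave log2 fold changes over Control of -0.41 for OSR1, -0.35 for OSR2, -0.86 for EGR1, -0.96 for KLF2 and -0.99 for KLF4 (SE 0.11 each, adjusted p from 6.9e-05 to 0.021). ADAM22 missed the threshold in OSR1 and OSR2 without Control replicate 1. The ADAM22 call was also lost in OSR1 without OSR1 replicate 1, and in OSR2 without OSR2 replicate 2 (-0.34 to -0.26 and adjusted p from 0.065 to 0.15 over all these fits). ADAM11 rose in OSR1, OSR2, EGR1 and KLF2, by 1.42 for OSR1, 1.64 for OSR2, 1.21 for EGR1 and 0.90 for KLF2 (SE 0.29 each, adjusted p from 0.0013 to 0.025). Its 12 libraries ranged from 1.86 to 7.84 CPM. ADAM11 missed the threshold in EGR1 and KLF2 without Control replicate 1. The ADAM11 call was also lost in EGR1 without EGR1 replicate 1, and in KLF2 without KLF2 replicate 1 (0.66 to 1.02 and adjusted p from 0.065 to 0.17 over all these fits).

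The last 8 ADAM genes are known in mammals mainly from testis, sperm or lymphoid cells, and 5 of them (ADAM5, ADAM18, ADAM28, ADAM29 and ADAM34) have no entry of that name in the RefSeq table, so their identity in chick is uncertain. ADAM29 was at 0.942 to 2.60 CPM in factor libraries against 0.413 and 0.710 CPM in Control and rose in all 5 factors, with log2 fold changes of 1.76 for OSR1, 1.91 for OSR2, 1.48 for EGR1, 1.50 for KLF2 and 1.56 for KLF4 (SE 0.42 to 0.43, adjusted p from 0.0044 to 0.018). ADAM32 fell in OSR1, OSR2, EGR1 and KLF2 (-0.79 for OSR1, -0.73 for OSR2, -0.53 for EGR1 and -0.44 for KLF2; SE 0.16 each, adjusted p from 0.0024 to 0.036). ADAM28 rose in OSR1, OSR2 and KLF4 (0.85 for OSR1, 0.74 for OSR2 and 0.51 for KLF4; SE 0.18 to 0.19, adjusted p from 0.0036 to 0.037). ADAM21, which the RefSeq table holds only as a synonym of ADAM20, was at 3.00 to 4.36 CPM and called lower in KLF4 at the edge of the threshold (log2 fold change -0.38). ADAM18 ranged from 7.28 to 35.1 CPM, ADAM5 from 0.386 to 0.769 CPM and ADAM20 from 0 to 20 counts, and none of the 3 was called. ADAM34 had 0.859 and 1.94 CPM in OSR1, 1.22 and 1.02 in OSR2, 1.79 and 1.90 in EGR1, 1.92 and 10.4 in KLF2, 3.99 and 3.33 in KLF4, against 3.64 and 4.08 CPM in Control. KLF2 replicate 2 stood far above KLF2 replicate 1, and no factor was called over Control. ADAM29 missed the threshold in OSR1, EGR1, KLF2 and KLF4 without Control replicate 1. The ADAM29 call was also lost in EGR1 without EGR1 replicate 1, and in KLF2 without KLF2 replicate 1 (0.70 to 1.44 and adjusted p from 0.061 to 0.13 over all these fits). ADAM32 missed the threshold in EGR1 and KLF2 without Control replicate 2. The ADAM32 call was also lost in EGR1 without EGR1 replicate 1 or 2, and in KLF2 without Control replicate 1, KLF2 replicate 1 or 2 or KLF4 replicate 1 or 2 or with the replicate number as a block (-0.58 to -0.34 and adjusted p from 0.05 to 0.19 over all these fits). ADAM28 missed the threshold in OSR2 and KLF4 without Control replicate 2. The ADAM28 call was also lost in KLF4 without Control replicate 1 or KLF4 replicate 1 or with library totals alone or DESeq2 (0.30 to 0.64 and adjusted p from 0.057 to 0.27 over all these fits). ADAM21 in KLF4 missed the threshold without Control replicate 1 or 2, OSR1 replicate 1 or 2, OSR2 replicate 1 or 2, EGR1 replicate 1 or 2 or KLF4 replicate 1 or 2 or with no filter, the replicate number as a block, thinned counts or DESeq2 (-0.44 to -0.32, adjusted p from 0.055 to 0.22).

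Comparisons between factors do not use the Control levels, although the Control libraries share in the estimate of spread. Between the 4 KLF2 and KLF4 libraries and the 4 OSR1 and OSR2 libraries, 16 genes were higher and 14 lower, 54.5% of the 55 where 33% of all features were called (15.6% higher and 17.4% lower). All 3 TIMPs were higher in the KLF family: TIMP4 (log2 fold change 0.98, SE 0.06, adjusted p = 4.4e-07), TIMP3 (log2 fold change 0.89, SE 0.22, adjusted p = 0.016) and TIMP2 (log2 fold change 0.51, SE 0.11, adjusted p = 0.0057). For TIMP2 and TIMP3, KLF2 replicate 2 (247 and 134 CPM) lay within the range of the OSR libraries (221 to 275 and 83.3 to 173 CPM). Both KLF4 libraries lay above that range for each gene. MMP7 had the largest difference of the 55 (log2 fold change 2.49, SE 0.15, adjusted p = 6.6e-07), and no KLF library overlapped an OSR library. The cartilage-linked collagenase MMP13 (log2 fold change 0.74, SE 0.09, adjusted p = 8.5e-05) and the procollagen N-proteinases ADAMTS2 (log2 fold change 0.74, SE 0.09, adjusted p = 0.00014) and ADAMTS14 (log2 fold change 0.57, SE 0.10, adjusted p = 0.0017) were also higher in the KLF family, while ADAMTS3 was lower (log2 fold change -0.34, SE 0.07, adjusted p = 0.0032).

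Of the called genes, ADAMTS1 was lowest in this comparison (log2 fold change -1.00, SE 0.05, adjusted p = 2.9e-07), followed by the anchored proteases MMP17 (log2 fold change -0.87, SE 0.10, adjusted p = 5.9e-05) and MMP23B (log2 fold change -0.86, SE 0.06, adjusted p = 1.6e-06), and ADAM11 (log2 fold change -0.73, SE 0.20, adjusted p = 0.017). ADAM18 was not called (log2 fold change -0.96, SE 0.33, adjusted p = 0.06). ADAMTS12 (log2 fold change -0.49), ADAMTS20 (-0.60), ADAM22 (-0.59) and MMP24 (-0.41) were lower too. MMP2, not called over Control, was lower in the KLF family by a small margin (log2 fold change -0.28, SE 0.08, adjusted p = 0.017). MMP14 (log2 fold change 0.28, SE 0.32, adjusted p = 0.55), MMP15 (log2 fold change 0.07, SE 0.18, adjusted p = 0.79), ADAMTS15 (log2 fold change -0.11, SE 0.10, adjusted p = 0.42), ADAM17 (log2 fold change 0.10, SE 0.05, adjusted p = 0.15) and ADAM33 (log2 fold change 0.03, SE 0.09, adjusted p = 0.81) were not called. MMP9 (log2 fold change 0.49, SE 0.14, adjusted p = 0.022), ADAM15 (log2 fold change 0.95, SE 0.27, adjusted p = 0.027) and ADAM34 (log2 fold change 1.92, SE 0.48, adjusted p = 0.017) were higher. For MMP9 and ADAM15, KLF2 replicate 2 (18.1 and 11.9 CPM) lay within the range of the OSR libraries (13.0 to 20.2 and 5.86 to 13.3 CPM). For ADAM34, KLF2 replicate 1 (1.92 CPM) lay within it (0.859 to 1.94 CPM). Both KLF4 libraries lay above that range for each gene named here. Of the 30 calls, 20 held in every alternative. TIMP3 missed the threshold without OSR2 replicate 1 or KLF2 replicate 1 (0.76 to 0.82, adjusted p from 0.055 to 0.058). MMP2 missed the threshold without OSR2 replicate 1, KLF2 replicate 1 or KLF4 replicate 2 (-0.26 to -0.20, adjusted p from 0.052 to 0.072). MMP9 missed the threshold without OSR2 replicate 1, KLF2 replicate 1 or KLF4 replicate 1 or 2 or with only the groups compared (0.41 to 0.50, adjusted p from 0.053 to 0.087). ADAM11 missed the threshold without OSR2 replicate 2, KLF2 replicate 2 or KLF4 replicate 1 (-0.64 to -0.61, adjusted p from 0.065 to 0.072). ADAM15 missed the threshold without OSR2 replicate 1 or 2, KLF2 replicate 1 or 2 or KLF4 replicate 1 or 2 (0.87 to 1.04, adjusted p from 0.05 to 0.09). ADAM34 missed the threshold without OSR2 replicate 1 or 2 or KLF4 replicate 1 or with only the groups compared (1.86 to 1.99, adjusted p from 0.051 to 0.059), and moved to 1.08 without KLF2 replicate 2. The calls of ADAMTS13, MMP10, ADAMTS9 and ADAM28 were lost in 13, 8, 3 and 1 alternatives in that order, each time including the fit without KLF4 replicate 2.

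Set against the mean of the OSR and KLF families, EGR1 had 11 genes higher and 9 lower, 36.4% of the 55 where 12.5% of all features were called (6.97% higher and 5.54% lower). TIMP4 (log2 fold change 1.04, SE 0.06, adjusted p = 2.7e-06), MMP11 (log2 fold change 0.96, SE 0.11, adjusted p = 0.00018), ADAMTS8 (log2 fold change 0.92, SE 0.12, adjusted p = 0.00042), MMP13 (log2 fold change 0.81, SE 0.10, adjusted p = 0.00023), ADAMTS20 (log2 fold change 0.79, SE 0.13, adjusted p = 0.0015) and ADAMTS17 (log2 fold change 0.73, SE 0.08, adjusted p = 0.00011) were higher in EGR1. ADAMTS15 (log2 fold change -1.20, SE 0.11, adjusted p = 9.4e-05), TIMP3 (log2 fold change -1.04, SE 0.25, adjusted p = 0.038) and ADAMTS5 (log2 fold change -0.41, SE 0.07, adjusted p = 0.0037) were lower. By family, 7 ADAMTS genes were higher and 4 lower of 18, and of 19 ADAM genes none was higher and 1, ADAM33 (log2 fold change -0.47, SE 0.10, adjusted p = 0.015), was lower. At an unadjusted p under 0.05 the ADAM count was 2 of 19, against 4370 of all 18979 features. Without EGR1 replicate 1 the 20 calls became 10, and without EGR1 replicate 2 they became 9. The 6 genes named as higher, with ADAMTS15 and ADAMTS5, are the 8 calls that held in every alternative. TIMP3 missed the threshold without Control replicate 1 or 2, OSR2 replicate 1 or 2, EGR1 replicate 1 or 2, KLF2 replicate 1 or KLF4 replicate 1 or 2 or with no filter, the replicate number as a block or only the groups compared (-1.17 to -0.92, adjusted p from 0.052 to 0.27). ADAM33 missed the threshold without EGR1 replicate 1 or 2 (-0.58 to -0.37, adjusted p from 0.052 to 0.19). ADAMTS3, ADAMTS6, ADAMTS18, ADAMTS19 and MMP16 were also called higher and ADAMTS7, ADAMTS12, MMP23B, MMP27 and MMP28 lower, and each of these calls was lost without at least 1 EGR1 library. A call against the mean of both families need not set EGR1 apart from each of them. The EGR1 libraries overlapped KLF2 or KLF4 libraries for MMP23B, MMP28, ADAMTS12 and ADAMTS18. They overlapped OSR1 libraries for TIMP3 and OSR2 libraries for ADAMTS19. Such overlap was absent for the 8 calls that held in every alternative.

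**Figure D5:**
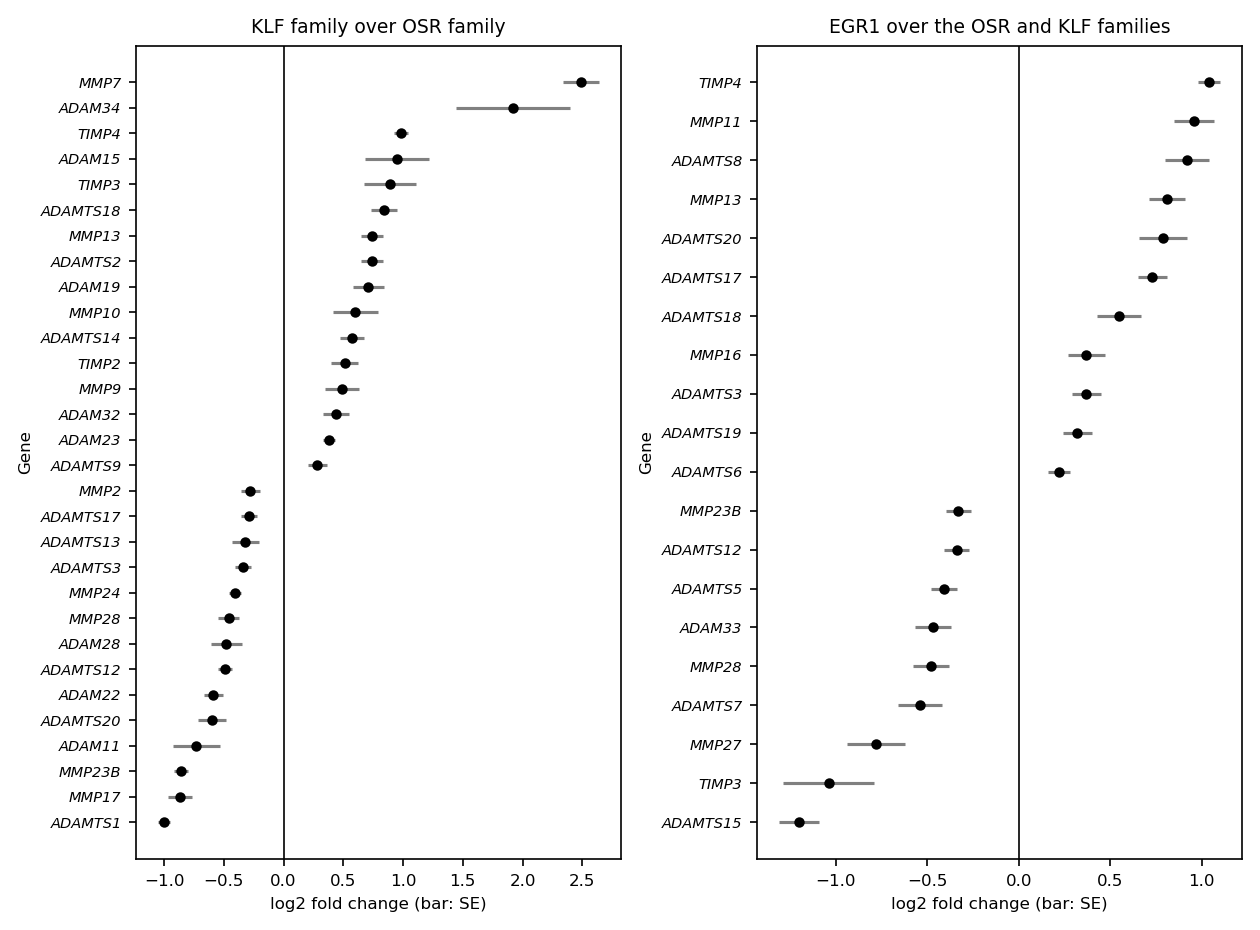
Log2 fold changes (points) with their SE (bars) for the genes called between the KLF family and the OSR family (left) and between EGR1 and both other families (right), ordered by size. MMP7 and ADAMTS1 are at the ends on the left, and TIMP4 and ADAMTS15 at the ends on the right.

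The paralogs were also compared directly. OSR1 over OSR2 called 0 of the 55 genes, where 0.0105% of all features were called, 0.00527% in each direction. Of the 55, 4 had an unadjusted p under 0.05, against 729 of all 18979 features, and DESeq2 also called 0. Their log2 fold changes ran from -1.71, for the scarce ADAMTS4, to 0.71, for ADAM18. This does not show that the levels are equal: for TIMP3, for example, the log2 fold change was 0.05 with an SE of 0.31. KLF2 over KLF4 called 3 genes, all lower in KLF2, 5.45% of the 55 where 2.66% of all features were called (0.674% higher and 1.99% lower). At an unadjusted p under 0.05 there were 18 of the 55, against 2745 of all 18979 features. The 3 were MMP7 (log2 fold change -1.72, SE 0.19, adjusted p = 0.0013), ADAM23 (log2 fold change -0.41, SE 0.07, adjusted p = 0.013) and ADAMTS6 (log2 fold change -0.39, SE 0.08, adjusted p = 0.028). The TIMP genes had an unadjusted p under 0.05 in all 3 cases and were not called, for example TIMP3 (log2 fold change -1.04, SE 0.31, adjusted p = 0.16) and TIMP2 (log2 fold change -0.65, SE 0.16, adjusted p = 0.065). DESeq2 called 5 of the 55, and leaving out 1 library at a time gave 1, without KLF4 replicate 1, to 6, without KLF2 replicate 1, and 5 without either OSR1 library. ADAM23 missed the threshold without KLF4 replicate 1 or 2 or with only the groups compared (-0.42 to -0.41, adjusted p from 0.091 to 0.13). ADAMTS6 missed the threshold without Control replicate 1 or 2, KLF2 replicate 2 or KLF4 replicate 1 or 2 or with only the groups compared (-0.41 to -0.33, adjusted p from 0.055 to 0.21).

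Genes that activate or restrain these enzymes came from fixed lists, whose counts stand against 24.6% to 28.9% of all features called higher and 20.5% to 25.5% called lower over the same 5 comparisons. Of 19 activators and other controls, the calls over Control were 6 higher and 5 lower in OSR1, 6 higher and 4 lower in OSR2, 6 higher and 5 lower in EGR1, 5 higher and 8 lower in KLF2 and 5 higher and 8 lower in KLF4. The precursor-cutting enzymes FURIN (0.96 for OSR1, 1.02 for OSR2, 1.29 for EGR1, 1.49 for KLF2 and 1.88 for KLF4 on the log2 scale; SE 0.26 each, adjusted p from 0.00064 to 0.016) and PCSK7 (0.95 for OSR1, 0.95 for OSR2, 0.99 for EGR1, 1.12 for KLF2 and 1.11 for KLF4; SE 0.16 each, adjusted p from 0.00033 to 0.0012) rose in all 5, as did LRP1, the receptor that takes up proteases and inhibitors (0.91 for OSR1, 1.16 for OSR2, 1.35 for EGR1, 1.23 for KLF2 and 1.34 for KLF4; SE 0.31 each, adjusted p from 0.0075 to 0.039). The related enzymes PCSK5 and PCSK6 did not share that pattern. PCSK5 had 130 to 138 CPM in OSR1 and OSR2, 92.6 and 76.9 in KLF2 and 62.5 and 67.0 in KLF4, against 109 and 106 CPM in Control. PCSK6 had 26.6 to 31.3 CPM in OSR1 and OSR2 and 35.1 and 36.4 in KLF4, against 34.0 and 36.4 CPM in Control. RECK, a membrane-bound inhibitor of MMPs, fell in all 5 (-0.24 for OSR1, -0.26 for OSR2, -0.36 for EGR1, -0.36 for KLF2 and -0.44 for KLF4; SE 0.07 each, adjusted p from 0.00049 to 0.015). The proteoglycans SPOCK1 and SDC4 also fell in all 5. SPOCK2, a relative of SPOCK1, was not lower, with 30.8 to 74.9 CPM in factor libraries against 20.7 and 34.7 CPM in Control. SPOCK3 had 61.7 to 79.8 CPM in OSR1 and OSR2, against 75.6 and 74.1 CPM in Control. It had 34.5 to 49.7 CPM in EGR1, KLF2 and KLF4. The median log2 fold change over Control of all tested features lay between -0.01 and 0.05 in the 5 comparisons. For the activators, 26.3% to 31.6% higher and 21.1% to 42.1% lower were called and the medians ran from -0.24 to 0.14.

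Of 12 procollagen proteinases, enhancers and ADAMTS-like genes, the calls were 3 higher and 3 lower in OSR1, 4 higher and 3 lower in OSR2, 4 higher and 2 lower in EGR1, 6 higher and 2 lower in KLF2 and 6 higher and 3 lower in KLF4 (25% to 50% higher and 16.7% to 25% lower; medians from 0.40 to 0.54). BMP1, which removes the C-terminal propeptide of procollagens, rose in all 5 (1.19 for OSR1, 1.41 for OSR2, 1.23 for EGR1, 1.39 for KLF2 and 1.59 for KLF4; SE 0.30 each, adjusted p from 0.0029 to 0.012). Its relative TLL1 rose most in OSR1 and OSR2 (1.75 for OSR1, 1.77 for OSR2, 0.66 for EGR1, 0.70 for KLF2 and 0.29 for KLF4; SE 0.10 each, adjusted p from 8.5e-07 to 0.033). PCOLCE2, an enhancer of BMP1, fell in all 5 (-1.13 for OSR1, -1.06 for OSR2, -0.71 for EGR1, -1.19 for KLF2 and -1.23 for KLF4; SE 0.10 each, adjusted p from 8.6e-06 to 0.00052). Its relative PCOLCE did not fall: it had 24.0 and 65.0 CPM in OSR1, 42.7 and 43.8 in OSR2 and 54.7 and 37.5 in EGR1. It had 53.4 and 68.4 CPM in KLF2 and 78.1 and 69.1 in KLF4, against 17.9 and 32.7 CPM in Control. BMP1 was at 67.4 and 126 CPM in OSR1 and 34.3 and 50.3 CPM in Control. Like both genes, FURIN, COL1A1, MMP14 and the transcription factor JUND were higher in replicate 2 of OSR1 and of Control. So were TIMP2, TIMP3, MMP9, MMP15, ADAM8 and ADAM15, while ADAM9 and ADAM17 were lower in replicate 2 of both groups. The collagen gene COL1A2 was not higher in replicate 2 of OSR1 (9391 and 8905 CPM). Whether these genes share a difference between libraries was not tested. Of 13 plasminogen-system and other serine protease genes, the calls were 6 higher and 2 lower in OSR1, 7 higher and 3 lower in OSR2, 1 higher and 2 lower in EGR1, 3 higher and 2 lower in KLF2 and 5 higher and 3 lower in KLF4 (7.69% to 53.8% higher and 15.4% to 23.1% lower; medians from 0.12 to 0.59). HTRA3 rose in all 5, most in the OSR groups (2.28 for OSR1, 2.54 for OSR2, 0.44 for EGR1, 0.74 for KLF2 and 0.96 for KLF4; SE 0.11 each, adjusted p from 2.7e-07 to 0.01). The serpin SERPINE2 and the protease HTRA1 fell in all 5. Of 13 cathepsin and cystatin genes, the calls were 8 higher and 1 lower in OSR1, 9 higher and 1 lower in OSR2, 5 higher and 2 lower in EGR1, 4 higher and 3 lower in KLF2 and 5 higher and 1 lower in KLF4 (30.8% to 69.2% higher and 7.69% to 23.1% lower; medians from 0.15 to 0.52). CTSK, a cathepsin that cuts collagen, rose with log2 fold changes of 1.23 for OSR1, 1.40 for OSR2, 1.06 for EGR1, 1.47 for KLF2 and 1.33 for KLF4 (SE 0.21 each, adjusted p from 0.00062 to 0.0039).

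Of 8 tested hyaluronan genes, the calls were 3 higher and 2 lower in OSR1, 2 higher and 2 lower in OSR2, 2 higher and 1 lower in EGR1, 5 higher and 0 lower in KLF2 and 7 higher and 0 lower in KLF4 (25% to 87.5% higher and 0% to 25% lower; medians from 0.35 to 0.92). The synthase HAS2 fell in OSR1 (log2 fold change -0.93, SE 0.09, adjusted p = 2.4e-05) and OSR2 (log2 fold change -1.02, SE 0.09, adjusted p = 9.9e-06) and rose in KLF4 (log2 fold change 0.92, SE 0.09, adjusted p = 2.2e-05). Of 20 substrates, the calls were 11 higher and 5 lower in OSR1, 11 higher and 5 lower in OSR2, 13 higher and 2 lower in EGR1, 12 higher and 3 lower in KLF2 and 12 higher and 2 lower in KLF4 (55% to 65% higher and 10% to 25% lower; medians from 0.42 to 0.58). Of 13 transcription factors known to act on protease genes, the calls were 7 higher and 2 lower in OSR1, 8 higher and 2 lower in OSR2, 6 higher and 0 lower in EGR1, 7 higher and 1 lower in KLF2 and 9 higher and 1 lower in KLF4 (46.2% to 69.2% higher and 0% to 15.4% lower; medians from 0.26 to 0.52). JUND (1.67 for OSR1, 1.79 for OSR2, 1.67 for EGR1, 1.96 for KLF2 and 2.48 for KLF4; SE 0.36 to 0.37, adjusted p from 0.00097 to 0.0079) and ETV5 (1.46 for OSR1, 1.49 for OSR2, 1.65 for EGR1, 1.90 for KLF2 and 1.86 for KLF4; SE 0.19 each, adjusted p from 8.9e-05 to 0.00041) rose in all 5. Of the 12 limb connective tissue markers, 6 higher and 1 lower in OSR1, 8 higher and 1 lower in OSR2, 6 higher and 4 lower in EGR1, 8 higher and 3 lower in KLF2 and 7 higher and 2 lower in KLF4 were called (medians from 0.24 to 0.71). These counts also stand against 24.6% to 28.9% of all features called higher and 20.5% to 25.5% called lower.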

How the data were processed

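RNA of 12 pools of cultures (6 groups, 2 replicates) was sequenced with the TruSeq Stranded mRNA kit as 50-bp paired-end reads, per the labels' protocols. The deposited values are whole-number counts per gene, not normalized, with a separate file for each library. TopHat2, SAMtools, featureCounts, DESeq2 and galGal4 are named in the submitters' processing notes. Not given in the sources used here are their versions, the annotation, and whether counting used strand, so reads of overlapping or antisense genes may be mixed.

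From these counts, library sizes were scaled by TMM and tests were run with edgeR 4.0.16 (quasi-likelihood, robust, R 4.3.3, limma 3.58.1) in 1 fit of all 12 libraries with a coefficient per group. Features passing filterByExpr with a minimum count of 10 were tested, 18979 of 21350. CPM uses the scaled library sizes, and the SE is a Wald SE from the quasi-likelihood variance. The code was tested on simulated data. Totals of 51233721 to 106079374 counts set the counting precision, and the 2 libraries a group leave 6 residual degrees of freedom. Within groups, libraries differed by more than sampling noise (chi-square per degree of freedom 13.8 to 91.4).

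Library values are given for genes that averaged 5 CPM or more and were called with an absolute log2 fold change of at least 1 over Control or between the KLF and OSR families, and for 13 genes whatever their values (MMP2, MMP9, MMP13, TIMP2, TIMP3, TIMP4, ADAMTS1, ADAMTS4, ADAMTS5, ADAM8, ADAM10, ADAM12, ADAM17). The members and lists were chosen with earlier results of these data known. Alternatives were DESeq2 1.42.0, library totals alone, RLE size factors, all features kept whatever their counts, only the groups compared, the replicate number as a block, thinned counts, and each library left out in turn. A RefSeq gene table of another assembly served for names only: 47 of 56 members matched as symbols and 2 as synonyms.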

Additional observations from a re-analysis of the deposited data

How the results depend on the processing

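No call on a protease or inhibitor gene reversed its direction under any alternative tried. Leaving out 1 library at a time gave 26 to 41 called genes in OSR1 over Control, 28 to 41 in OSR2, 20 to 35 in EGR1, 26 to 39 in KLF2 and 31 to 42 in KLF4. It gave 24 to 31 between the KLF and OSR families, 9 to 22 for EGR1 over both families, 0 for OSR1 over OSR2 and 1 to 6 for KLF2 over KLF4. Without EGR1 replicate 1, EGR1 over Control had 20 calls in place of 33, and EGR1 over both families 10 in place of 20. A fit that leaves a group with 1 library assumes that library to vary like those of the other groups. DESeq2 called 5 genes for KLF2 over KLF4, where edgeR called 3, and over all features 35 against 2 for OSR1 over OSR2 and 781 against 505 for KLF2 over KLF4. The other settings gave 34 to 38, 37 to 43, 32 to 38, 33 to 40 and 39 to 44 calls over Control in OSR1, OSR2, EGR1, KLF2 and KLF4. The cause of these shifts was not tested. Leaving out either Control library lost more of the 241 calls than any other setting. The Control libraries enter every comparison over Control and so bear on more calls than other libraries. These losses therefore do not rank the libraries. Depth limits the genes with few counts, such as MMP1, MMP3, ADAMTS4 and ADAM20.

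Deviations of same-numbered libraries correlated between -0.29 and 0.22 over group pairs. These weak correlations over all features do not show whether the replicate numbers pair the samples. Cartilage markers, for example, summed higher in replicate 1 than in replicate 2 in every factor but not in Control. With the replicate number as a block, 36, 37, 33, 37 and 40 genes were called over Control in OSR1, OSR2, EGR1, KLF2 and KLF4, 29 between the KLF and OSR families, 18 for EGR1 over both, 0 for OSR1 over OSR2 and 3 for KLF2 over KLF4. With the EGR1 numbers crossed in that block, chosen after seeing the data, 34 were called in EGR1 over Control.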
